A study of Mus musculus with 12 samples.

Results

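TFIIH is a multi-subunit complex that opens DNA at promoters for RNA polymerase II and around bulky lesions during nucleotide excision repair. The 10 genes described here encode its subunits, and they were read for peaks of the transcription factor USF2 in mouse embryonic fibroblasts (MEFs). The set was named for TFIIH and nucleotide excision repair, and it holds all subunits of the complex, with no repair factor from outside it. Each gene was matched by symbol among 21887 protein-coding genes of the RefSeq table of GRCm38.p6. A peak was counted for a gene when its summit lay within 1000 bp of either end of the annotated gene, here called a gene-end peak, or inside the gene. This gave 12 peaks in 6 regions out of 3804 regions in the series. The members were chosen by their USF2 peaks in these same lists, so their calls, fold enrichments and ranks are a description and carry no test.

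The USF2 libraries came from wild-type MEFs, 2 from cells in normal culture and 2 from cells starved of glucose. The length of starvation and the origin of the MEFs are not given in the sources used here, and the labels do not say whether the 2 libraries of a condition came from separate cultures. The peak lists hold 1645 (normal 1), 2124 (normal 2), 825 (starved 1) and 1178 (starved 2) peaks on the assembled chromosomes. The narrowest peak was 152 bp in both normal lists and 306 bp in both starved lists, so the conditions also differ in calling width, and its effect on the calls cannot be told apart from that of starvation. The median pileup at a summit, recovered from the deposited values, was 5, 6, 8 and 6 reads. The read depth of the libraries is not given in the sources used here. Peak lists give no gene expression, so the cell type of the label could not be checked against markers.

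As background, TFIIH consists of a core and a kinase module. In the core, Ercc2 (XPD) and Ercc3 (XPB) encode the helicase subunits, and Gtf2h1 to Gtf2h5 encode the subunits that hold and regulate them. Cdk7, Ccnh (cyclin H) and Mnat1 (MAT1) form the CDK-activating kinase, which phosphorylates the tail of RNA polymerase II and also cell cycle kinases. USF2 is a basic helix-loop-helix leucine zipper protein that binds the E-box CACGTG, usually as a dimer with USF1.

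The promoter sequences of the members show where such E-boxes lie, and they were not used in choosing the genes. RefSeq promoter windows of GRCm38.p6 (300 bases, from 250 before to 50 after a start site) were at hand for 8 of the 10 members, in 9 windows, since Gtf2h5 has 2 start sites. Ccnh and Ercc3 have no entry. The E-box CACGTG was found in the windows of 3 members, Gtf2h1, Gtf2h5 and Cdk7, against 7.15% of all 32851 windows. Windows with a USF2 summit in any list held it in 68.2% of cases, against 6.03% of windows without a summit. Since the members were chosen by their peaks, their E-box share is not independent of that choice and carries no test. CACGTG reads the same on both strands. The following stretches are shown because they hold the E-boxes or the USF2 summits on which the results turn, with each E-box in capitals and positions counted from the start site, whose own base is 0. The Gtf2h1 stretch (chr7:46795964-46796118, plus strand, -130 to +24) holds 2 E-boxes and the summits of both starved lists. That of Gtf2h5 (chr17:6079678-6079797, plus strand, -150 to -31, from the upstream start site) holds 1 E-box and the summit of starved 2. The Cdk7 stretch (chr13:100730973-100731092, minus strand, -150 to -31) holds 1 E-box and no summit.
Gtf2h1: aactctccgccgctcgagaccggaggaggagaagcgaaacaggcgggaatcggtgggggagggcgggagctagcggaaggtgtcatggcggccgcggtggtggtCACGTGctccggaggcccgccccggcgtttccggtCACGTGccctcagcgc
Gtf2h5: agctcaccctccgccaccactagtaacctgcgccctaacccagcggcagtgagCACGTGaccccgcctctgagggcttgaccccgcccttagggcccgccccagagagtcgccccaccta
Cdk7: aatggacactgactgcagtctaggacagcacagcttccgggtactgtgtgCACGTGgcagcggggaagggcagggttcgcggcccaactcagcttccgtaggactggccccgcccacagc

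The stretches of Gtf2h4 (chr17:35673843-35673963, minus strand, -220 to -100), Gtf2h2 (chr13:100492494-100492644, minus strand, -250 to -100) and Mnat1 (chr12:73123642-73123741, plus strand, -75 to +24) each hold a USF2 summit of a normal list and no CACGTG. The full windows of these 3 genes, and those of Gtf2h3 and Ercc2, have none either. That says no more than that these letters are not in these windows.
Gtf2h4: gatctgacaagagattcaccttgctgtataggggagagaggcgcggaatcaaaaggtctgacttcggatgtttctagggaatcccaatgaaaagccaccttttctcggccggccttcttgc
Gtf2h2: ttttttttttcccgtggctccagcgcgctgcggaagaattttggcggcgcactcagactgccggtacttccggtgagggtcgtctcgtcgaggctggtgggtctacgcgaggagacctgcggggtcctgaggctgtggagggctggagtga
Mnat1: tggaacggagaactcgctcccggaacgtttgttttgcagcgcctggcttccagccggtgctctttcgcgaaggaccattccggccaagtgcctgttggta

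USF2 gene-end peaks were present at 5 of the 10 TFIIH genes in at least 1 list, against 4.05% of all protein-coding genes. The 5 were Gtf2h1, Gtf2h2, Gtf2h4 and Gtf2h5 of the 7 core genes and Ccnh of the 3 kinase genes. Gtf2h1 was called in all 4 lists (1 of 10, against 1.13% of genes). Gtf2h2 and Gtf2h4 were called in both normal lists and neither starved list, and Ccnh in both starved lists and neither normal list. Gtf2h5 was called in starved 2 alone. By list, 3 members were called in normal 1 (against 2.54% of genes), 3 in normal 2 (2.68%), 2 in starved 1 (2.01%) and 3 in starved 2 (2.30%). Both normal lists shared 3 of 10 members (against 2.19% of genes) and both starved lists 2 of 10 (against 1.78%). The local background in reads, recovered from the deposited values, was nearly equal in normal 1 and normal 2. It was 0.593 and 0.594 at Gtf2h1 and at Gtf2h4, and 0.297 in both at Gtf2h2. In starved 1 and starved 2 it was 0.617 and 0.583 at Gtf2h1 and 0.988 and 1.52 at Ccnh. Whether the 2 normal lists were called against separate backgrounds is not known and was not tested. With a peak inside the gene also counted, Mnat1 joined through normal 2, which made 6 of 10 members against 10.5% of genes. A longer gene has more room for a peak inside it, and this comparison was not matched for length. The median length was 26.0 kb for the members and 17.2 kb for all protein-coding genes, and Mnat1 spans 161804 bp. A gene without a call in a list was below the threshold of the peak caller in that library, and its signal there is not known.

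The strongest of these peaks belonged to Gtf2h1, whose product is a core subunit that contacts other repair and transcription factors. Its fold enrichment, the read pileup at the summit over the local background as given by the authors' peak caller, was 10.04 in normal 1, 9.41 in normal 2, 12.98 in starved 1 and 12.6 in starved 2. All 4 values lie above the median of the gene-end peaks of their own list, which was 7.41, 7.53, 7.03 and 6.81 in the same order. By fold enrichment the Gtf2h1 peak ranked 148 of 1645, 205 of 2124, 38 of 825 and 41 of 1178. Fold enrichments and ranks depend on the depth and settings of a library, so no ratio between lists was formed from them. The −log10 q was 12.0, 10.7, 18.9 and 17.9. The summit pileup recovered from the caller's values was 15 reads in normal 1 (95% exact Poisson interval 8.40 to 24.7), 14 in normal 2 (7.65 to 23.5), 20 in starved 1 (12.2 to 30.9) and 19 in starved 2 (11.4 to 29.7). These intervals overlap in every pair of lists and cover counting error only. The pileups too depend on the depth and calling width of a library, so this overlap does not show that binding was alike.

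**Figure D1:**
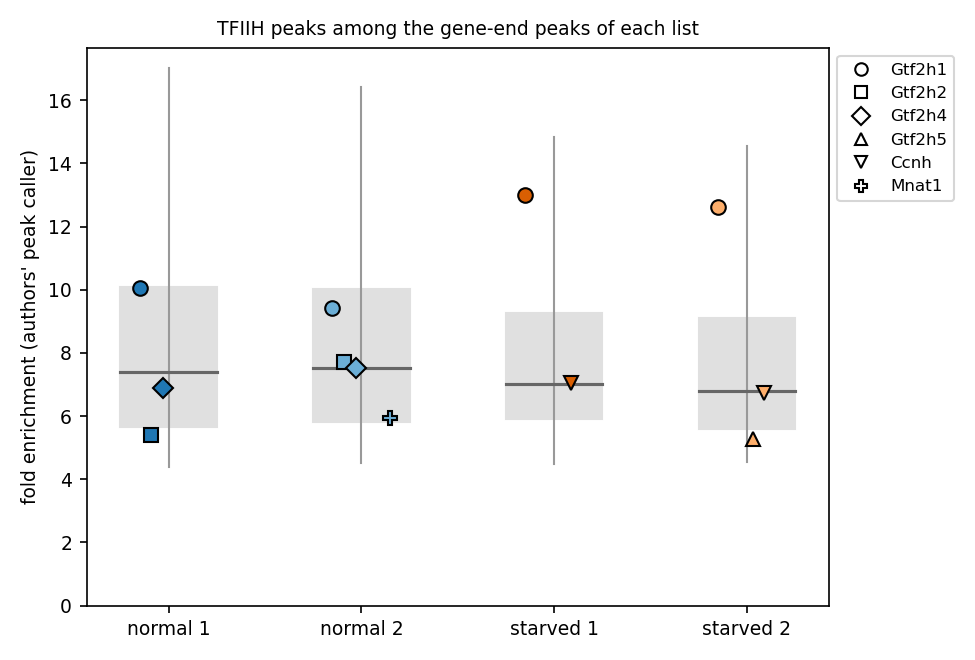
Fold enrichment from the authors' peak caller (y axis, linear) for each TFIIH gene's peak in the 4 lists (x axis). Grey boxes give the quartiles and median, and thin lines the 5th to 95th percentile, of all gene-end peaks of a list. Gtf2h1 stands highest among the members in each list, at 9.41 to 12.98, while the other members lie between 5.27 and 7.71. Mnat1's peak is not a gene-end peak.

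The Gtf2h1 region (chromosome 7, 46795647 to 46796263) covers a divergent promoter, and USF2 signal there cannot be assigned to Gtf2h1 alone. Hps5, a subunit of a complex that builds lysosome-related organelles, runs the other way, and its annotated end lies 29 bp from the start of Gtf2h1. The start sites of the 2 genes in the promoter table are 213 bp apart, and the Hps5 start at 46795881 lies upstream of that of Gtf2h1 at 46796094. The summits fell at different places in the 2 conditions. They lay 347 and 341 bp upstream of the Gtf2h1 start in normal 1 and normal 2, which is 134 and 128 bp downstream of the Hps5 start, and 123 bp upstream of Gtf2h1 in both starved lists, which is 90 bp upstream of the Hps5 start. The annotated span of Hps5 reaches 46796065, past its start in the promoter table, so by that span the summits of every list lie inside Hps5. They are 318 and 312 bp from its end in normal 1 and normal 2 and 94 bp in both starved lists. Within a condition the summits were 6 bp (normal) and 0 bp (starved) apart, and between conditions 218 or 224 bp. The peak spans were similar all the same (584, 532, 529 and 581 bp wide), and any pair shared at least 85.4% of the wider peak. The starved peaks also share their start coordinate. The narrowest peak was 152 bp in both normal lists and 306 bp in both starved lists. The effect of this calling width on where a summit falls cannot be told apart from that of starvation.

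Both Gtf2h1 E-boxes lie inside all 4 peaks, at -26 to -21 and at +9 to +14 from its start. Each has GT before CACGTG on the plus strand (GTCACGTGCT and GTCACGTGCC with flanks), the sequence that was found on either strand in 2.25% of all windows. The summits stood well away from them. The nearer E-box was 323.5 and 317.5 bp from the summits of normal 1 and normal 2 and 99.5 bp from those of both starved lists, measured to its centre. Among all peaks whose span holds a CACGTG of any promoter window, the median distance from summit to nearest E-box was 13.0 bp in normal 1 (224 peaks), 13.5 bp in normal 2 (228), 23.5 bp in starved 1 (245) and 26.5 bp in starved 2 (270). Gtf2h1 had the second largest distance in each normal list, and ranked 20 and 23 from the farthest in the starved lists. Since the E-box had to lie inside the peak, the width of a peak bounds this distance. The Gtf2h1 peaks were 584, 532, 529 and 581 bp wide in normal 1, normal 2, starved 1 and starved 2. The median widths of all peaks in these lists were 152, 153, 328 and 309 bp. Most normal peaks were thus too narrow for such a distance, and peaks of like width were not compared. The bases around the normal summits lie in neither the Gtf2h1 nor the Hps5 window and were not searched, so a nearer CACGTG there would not have been seen. This ordering was looked at after the summits had been seen.

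**Figure D2:**
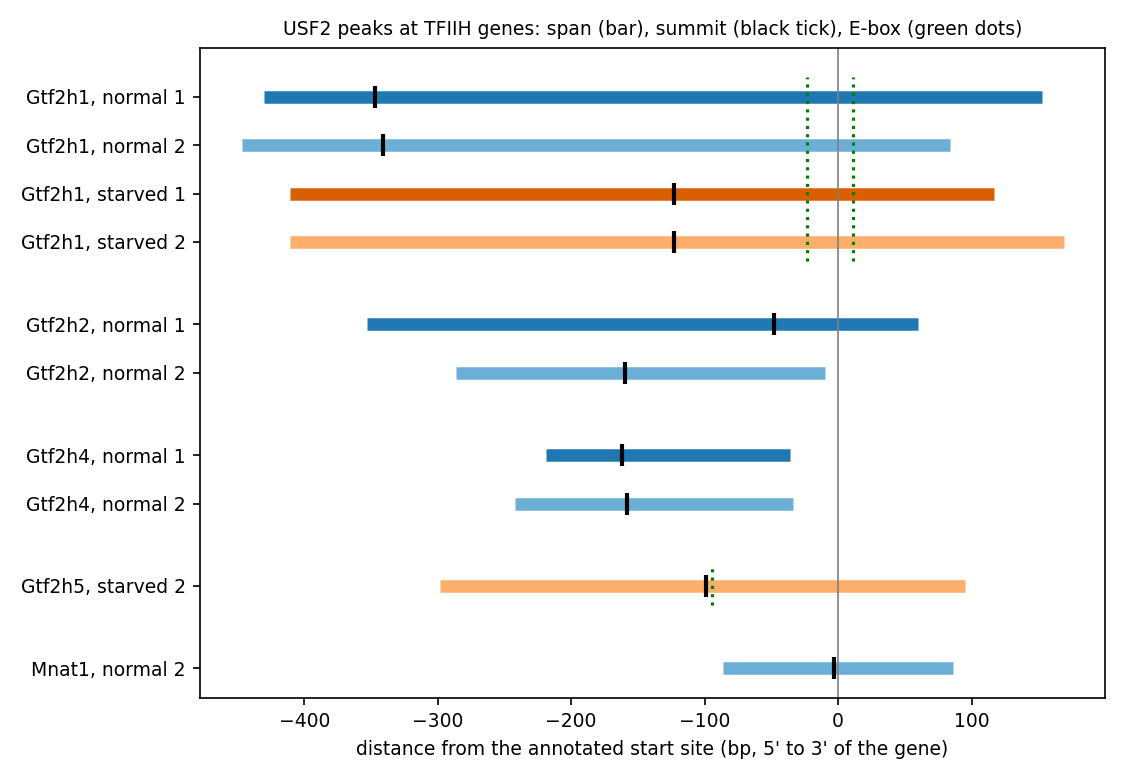
USF2 peaks at the 5 TFIIH genes with a start site in the promoter table, in bp from that start site, read 5′ to 3′ along the gene (for Gtf2h5 from its upstream start). Bars are peak spans coloured by list, black ticks are summits and green dotted lines are CACGTG E-boxes. In Gtf2h1 the normal summits lie 341 and 347 bp upstream and the starved summits 123 bp upstream, and in Gtf2h5 the summit lies beside the E-box.

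Gtf2h5, the smallest TFIIH subunit, which stabilises the complex during repair, was called in starved 2 with a peak of low fold enrichment (chromosome 17, 6079530 to 6079923). Its fold enrichment was 5.27, below the median of gene-end peaks in that list, with rank 696 of 1178. By its −log10 q of 5.39 it ranked 367. The pileup was 17 reads (95% exact Poisson interval 9.90 to 27.2) over a background of 2.41, the highest background of the 12 member peaks. The summit lay 99 bp upstream of the first Gtf2h5 start and 4.5 bp from the centre of its E-box at -97 to -92. This E-box, AGCACGTGAC with flanks, also lies 3 to 8 bases after the start of Serac1, a gene of phospholipid remodelling that runs the other way, with the start sites 89 bp apart. The nearest summit to Gtf2h5 lay 21.3 kb away in both normal lists and 1159 kb away in starved 1. Both TFIIH regions with an E-box in the window, at Gtf2h1 and Gtf2h5, are thus shared with a divergent neighbour. No other protein-coding gene had an end within 1000 bp of the summits at Gtf2h2, Gtf2h4 and Ccnh. Ccnh has no promoter window, so its E-box content is not known. Cdk7, whose window holds an E-box but no summit, also has a neighbouring gene end 216 bp away.

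Gtf2h4 and Gtf2h2, core subunits that act on the XPB and XPD helicases, were called in the normal lists. Gtf2h4 (chromosome 17, 35673777 to 35673985) had fold enrichments of 6.90 in normal 1 and 7.53 in normal 2, with −log10 q of 5.58 and 6.94 and ranks of 351 of 1645 and 408 of 2124. The summit pileups were 10 and 11 reads. The 2 summits lay 162 and 158 bp upstream of the start site, so the lists placed this peak within 4 bp of each other. Gtf2h2 (chromosome 13, 100492334 to 100492747) had fold enrichments of 5.40 in normal 1 and 7.71 in normal 2, from 6 reads (95% exact Poisson interval 2.20 to 13.1) and 9 reads (4.12 to 17.1). Its −log10 q was 3.12 and 7.23. The 2 libraries differed more here than at Gtf2h4, with ranks of 853 of 1645 and 366 of 2124 and summits 48 and 160 bp upstream of the start, 112 bp apart. The Gtf2h2 peak in normal 1 was the weakest member peak by −log10 q. In the starved lists the nearest summit lay 555 and 1021 kb from Gtf2h4 and 1535 and 741 kb from Gtf2h2.

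Ccnh encodes cyclin H, the regulatory partner of CDK7, and was called in the starved lists (chromosome 13, 85189200 to 85189578). Its fold enrichment was 7.04 in starved 1 and 6.73 in starved 2, with −log10 q of 6.72 and 7.37 and ranks of 224 of 825 and 287 of 1178. The pileups were 13 reads (95% exact Poisson interval 6.92 to 22.2) and 16 reads (9.15 to 26.0). Both summits lay just inside the gene, 57 and 39 bp from its lower-coordinate end at 85189377. In the normal lists the nearest summit was 1898 and 1133 kb away. Whether Gtf2h2, Gtf2h4 and Ccnh differ in binding between conditions was not tested, as a call in 1 condition and not the other does not show a difference, and 2 lists against 2 cannot give a small exact p.

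Mnat1, the assembly factor of the kinase module, shows how the gene table bears on the calls. Its peak in normal 2 (chromosome 12, 73123631 to 73123803; fold enrichment 5.94, −log10 q 4.82, 12 reads, rank 804 of 2124) lay 11529 bp from the nearer end of the annotated gene, whose span starts at 73112185. Its summit at 73123714 was 3 bp upstream of the start site in the promoter table, at 73123717. By distance to the gene end it was the member nearest beyond the 1000 bp bound, and the farthest summit within the bound was that of Gtf2h1 in normal 1 at 347 bp. The other 3 lists had their nearest summit 351 kb or more from Mnat1.

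Gtf2h3, Ercc2, Ercc3 and Cdk7 had no gene-end peak and no peak inside the gene in any list. Ercc3, the XPB helicase, came closest, with a summit 18.4 kb away in both normal lists (fold enrichment 5.39 and 5.37). Ercc2, the XPD helicase, had summits at 113 kb in normal 1 and both starved lists and at 60.0 kb in normal 2. Gtf2h3, which pairs with the Gtf2h2 product in the core, had its nearest summit 279.7 kb away, in starved 2, although it too lies head to head with a neighbour, Eif2b1, whose annotated end is 17 bp away. The summits nearest to Cdk7 in the normal lists were those of Gtf2h2, 205 and 204 kb away on chromosome 13. Counting both kinds of peak, calls fell on 4 of the 5 Gtf2h genes, on the cyclin and, inside the gene, on Mnat1. The genes of both helicases and of the kinase itself had none, as was the case for most protein-coding genes. Of all protein-coding genes, 10.5% had such a call in any list. A pattern by subunit role was not tested.

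**Figure D3:**
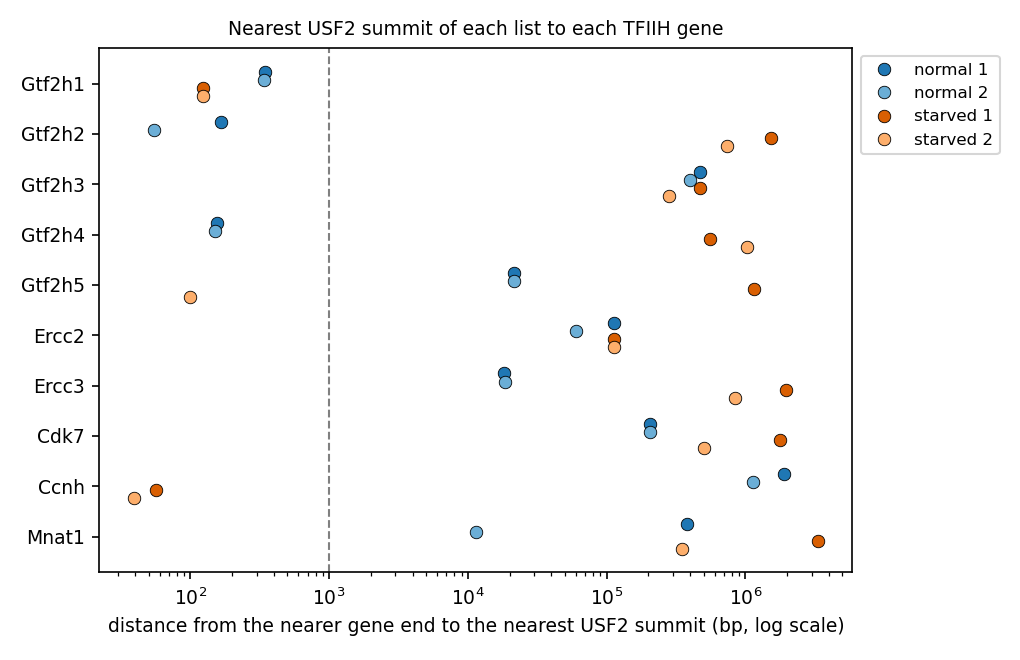
Distance from the nearer annotated end of each TFIIH gene to the nearest USF2 summit (x axis, bp, log scale), 1 point per list; the dashed line marks 1000 bp. Gtf2h1 lies left of the line in all 4 lists, Gtf2h2 and Gtf2h4 in the normal lists, Ccnh in the starved lists and Gtf2h5 in starved 2. All other points lie beyond 10 kb, among them Mnat1 in normal 2 at 11.5 kb, inside its gene.

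E-box content set the members beside other promoters. A summit in at least 1 list was found in 43.5% of the 738 windows with GTCACGTG or CACGTGAC, in 5.09% of the 1611 windows with CACGTG but without these flanks, and in 0.616% of the 30502 windows without CACGTG. The windows of Gtf2h1 and Gtf2h5 are of the first kind. That of Cdk7 is of the second (TGCACGTGGC with flanks, at -100 to -95) and has no summit. The windows of Gtf2h2, Gtf2h4 and Mnat1 are of the third kind and hold a summit. Of the 140 windows with a summit in both normal lists and neither starved list, 45.0% held CACGTG, against 87.8% of the 82 windows with a summit in both starved lists and neither normal list and 92.0% of the 150 windows with one in all 4 lists. Gtf2h2 and Gtf2h4 are among the normal-only windows without the E-box. The Gtf2h1 window counts among those of both starved lists alone, although its region is called in all 4 lists, since the normal summits lie outside the window. Windows of neighbouring genes and of 2 starts of a gene overlap, so they are not independent, and the lists differ in length and calling width. Ccnh could not be placed in this comparison.

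**Figure D4:**
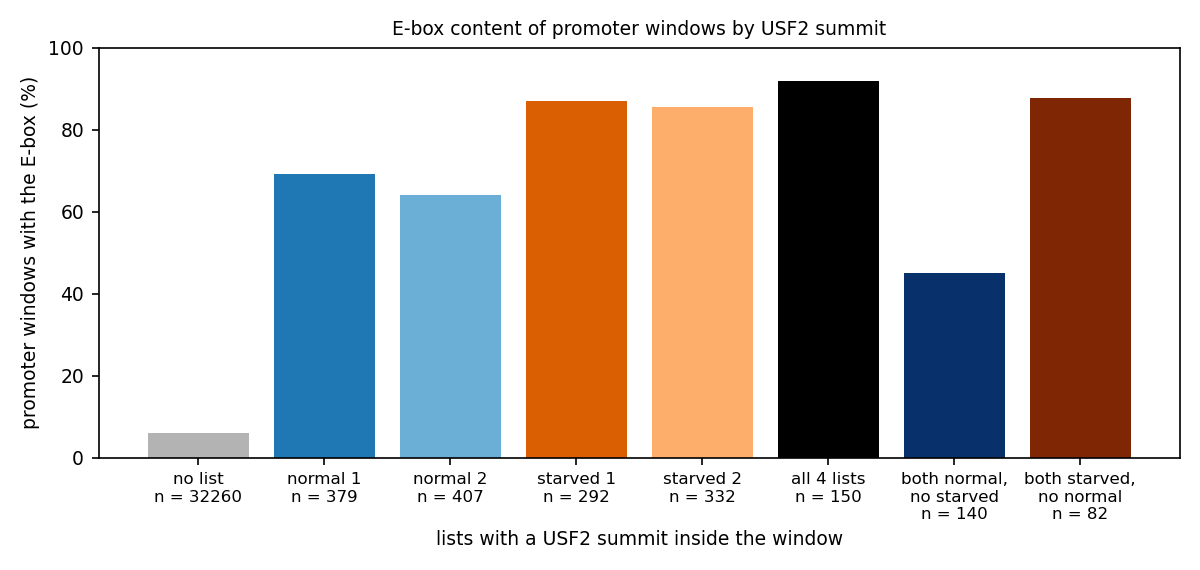
Share of 300-base promoter windows that hold CACGTG (y axis, percent, from 0), by the lists that have a USF2 summit inside the window; n is the number of windows. The share is 6.03% in windows without a summit, 64.1% to 87.0% in the single lists, 45.0% in windows with a summit in both normal lists alone and 87.8% in those of both starved lists alone.

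The partners of TFIIH in repair and transcription had USF2 peaks about as often as protein-coding genes at large, of which 4.05% had a gene-end peak in any list. Of 37 other nucleotide excision repair genes, taken from textbook roles, 1 had a gene-end peak in any list, Rpa1, a subunit of the single-strand binding protein RPA. It was called in normal 1 alone (fold enrichment 6.86, 14 reads, chromosome 11, 75348366 to 75348517), with the summit 27 bp from its end and likewise close to Smyd4, whose end is within 1000 bp. The lesion sensors Xpc, Ddb1 and Ddb2, the scaffold Xpa, the nuclease genes Ercc1, Ercc4 and Ercc5 and the transcription-coupled repair genes Ercc6, Ercc8 and Uvssa had none. Of 33 genes of the other general transcription factors and RNA polymerase II, 2 had a gene-end peak. Gtf2a1, a TFIIA subunit, had 8.04 in starved 1 and 6.35 in starved 2 (chromosome 12), and Gtf2f1, a TFIIF subunit, had 4.73 in starved 1 alone (chromosome 17). These shares are 2.70% and 6.06%, on either side of the 4.05% of all protein-coding genes.

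Regions whose ranks come nearest to those of the members give a sense of where they stand. Likeness was the Euclidean distance between rank percentiles in the lists that call the region, among gene-end regions of the same call pattern. Nearest to Gtf2h1 among 206 such regions of all 4 lists were those at Hoxa4 (fold enrichment 10.2 in normal 1, 9.25 in normal 2, 13.9 in starved 1, 14.6 in starved 2), Rmc1, and Bloc1s3 with Trappc6a. For Gtf2h4, among 155 regions of the normal lists, they were Mtg1 (6.94 and 7.62), Tmem192 and Chic1. For Gtf2h2 they were Crebzf (5.40 and 10.8), Mpv17 and Flcn, at larger distances, and for Ccnh, among 107 regions of the starved lists, Dlx2 (7.36 and 6.73), Tcn2 and Gyg.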

How the data were processed

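Of the 12 samples, the 4 USF2 libraries were used, each with its own deposited peak list; the inputs and the H3K27ac libraries were not analysed here. Alignment to GRCm38 and peak calling were done by the authors; deepTools 3.5.1, MACS2 2.2.7.1 and Bowtie2 2.5.1 are listed, per the submitters' processing notes, with no settings, and whether the inputs were used is not given there. Per the column order of the deposited lists, a fold enrichment (a ratio), a −log10 p-value, a −log10 q-value and a summit offset stand beside every peak. The deposited score repeats −log10 q times 10 without decimals and was not used.

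Peaks overlapping by at least 1 bp were merged into regions. Gene spans, names and promoter windows came from RefSeq tables of GRCm38.p6. Reads at a summit were recovered by trying every whole pileup, taking the background that gives the deposited fold enrichment with 1 added to both, and keeping the pileup whose Poisson tail came closest to the deposited −log10 p; the closest was within 0.001 for every peak; this and the region and gene-end steps were tested on simulated data. Values were computed in Python 3.11.15 (pandas 2.3.3, scipy 1.17.1).

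No test across libraries was run. Named were all members, other genes with an end within 1000 bp of a member's summit, called genes of the 2 wider lists, and the 3 regions nearest in rank to each member called in 2 or more lists. Members and lists were chosen with earlier results of these data known. Alternatives were other windows, stricter peak bounds, other overlap rules and leaving out each library.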

Additional observations from a re-analysis of the deposited data

How the results depend on the processing

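Gtf2h1 was called at a gene end in all lists kept under every alternative run. For the runs that left out a library this was fixed in advance, since the gene was called in all 4 lists. Of 69 recomputed counts, 63 stayed within 1.5 times the value reported. Part of them could not fall, since leaving out a library cannot lower a count of calls shared between lists. The bound is also wide for small counts, as a change from 3 members to 2 lies within it. Requiring −log10 q of at least 5, lists as short as the shortest, or at least 10 reads at the summit (added after the data were seen) left 2 members, Gtf2h1 and Gtf2h4, in both normal lists, since Gtf2h2 was then lost from normal 1 and, under the bound on reads, from normal 2 as well. Without starved replicate 2 Gtf2h5 had no call, and 4 members had one in any list. With start sites of the promoter table in place of gene ends, an alternative added later, Mnat1 was gained and Ccnh, which has no entry there, was lost, so both starved lists shared 1 member in place of 2. With summits required to lie within 150 bp of each other, 0 member regions in place of 1 were common to all 4 lists, since the Gtf2h1 summits lie 218 to 224 bp apart between conditions. Among other repair genes a window of 5000 bp gave 2 genes (Cul4a added), and leaving out each library in turn gave 0 to 1, with 0 without normal replicate 1. Among general transcription factors −log10 q of at least 5 gave 1, and leaving out each library gave 1 to 2. Ordered by −log10 q, the Gtf2h5 peak ranked 367 in place of 696 and the Gtf2h1 peak 60 in place of 38 in starved 1. Median summit pileups of 5 to 8 reads per list limit what any weak peak shows. No paired analysis was possible because each list gives values for its own calls alone, so 4 of the 5 genes called at a gene end have no value in at least 2 lists, and fold enrichments of different lists are not on 1 scale; the libraries share only a replicate number.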

Other observations

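Away from gene ends, 4 genes of the 2 wider lists held a USF2 peak inside the gene. With such peaks counted beside gene-end peaks, 8.11% of the other repair genes and 12.1% of the general transcription factor and polymerase genes had a call in any list, near the 10.5% of all protein-coding genes. Their median lengths were 24.3 kb and 10.4 kb, against 17.2 kb for all protein-coding genes, and the shares were not matched for length. Taf3, a TFIID subunit, had the strongest, with a fold enrichment of 11.2 in normal 2 (12 reads, −log10 q 14.8, chromosome 2, 9935805 to 9935963), 21311 bp from a gene end and in no other list. Rfc1, the large subunit of the clamp loader, had a peak in both normal lists with identical coordinates (chromosome 5, 65272909 to 65273060) and 5 reads in each, and another one at a different place in starved 2. Taf4, also of TFIID, likewise had peaks with identical coordinates in both normal lists (chromosome 2, 179967037 to 179967188), again with 5 reads in each. Pole, the catalytic subunit of DNA polymerase epsilon, had 6.38 in normal 2 from 6 reads. The narrow peaks at Rfc1 and Taf4 are 152 bp wide, the narrowest width of those lists.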
